A study of Mus musculus with 7 samples.

Results

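Killer lectin-like receptors and the genes of cytotoxic granules were examined in lesional skin of bleomycin-treated male mice with and without OX40L. The genes were chosen by name. They were every probe set whose platform symbol begins with Klr or Gzm, and those of Ncr1, Prf1, Nkg7 and Eomes. This gave 41 of the 23185 probe sets with 1 gene symbol, namely 27 Klr genes, 10 Gzm genes and the other 4. By the signalling role known for each receptor, 14 were grouped as inhibitory and 8 as activating. The granule genes numbered 12 (the granzymes, Prf1 and Nkg7), and 7 genes were partner chains, a transcription factor or receptors of unassigned role. Klra8 and Klrc2, which also encode activating receptors, were not among the named probe sets and were not analysed here.

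The study hybridized total RNA of lesional skin to Affymetrix arrays, 1 array for each of 7 samples. There were 4 samples from ox40l-/- mice and 3 from ox40l+/+ mice, all labelled C57BL/6, all male, all 9 weeks old and all given bleomycin for 3 weeks. No group without bleomycin was compared, and the values say nothing about the effect of bleomycin. Whether 1 animal gave 1 sample is not in the labels. The p-values therefore reflect only how far these samples spread, part of which may be technical.

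Natural killer (NK) cells weigh signals from receptors that restrain them and receptors that set them off. Inhibitory killer lectin receptors carry tyrosine-based motifs in the cytoplasmic tail that recruit phosphatases when the receptor meets major histocompatibility complex (MHC) class I or related ligands on healthy cells. Activating receptors lack such motifs and signal through small adaptor proteins. An activated killer cell releases granules in which perforin opens the target membrane and granzymes, serine proteases, enter to trigger cell death. In skin, some of these genes are also used by CD8 T cells, gamma-delta T cells and other innate lymphoid cells, and OX40L acts on lymphocytes through its receptor OX40.

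Promoter windows of the inhibitory receptor, the activating receptor and the granule gene with the smallest p are shown first. These 3 genes were picked by p from these same data, and none passed after adjustment. Sequences are from RefSeq on build GRCm38.p6, as the 250 bases before the annotated gene start, 5′ to 3′ on the gene's strand. Capitals mark the RUNX core TGTGGT or its reverse complement ACCACA. The window of Klra7, an inhibitory receptor, lies at chr6:130231688-130231937 on the minus strand, that of Ncr1, an activating receptor, at chr7:4337465-4337714 on the plus strand, and that of Gzma, a granule protease, at chr13:113100982-113101231 on the minus strand. For Klra7 and Ncr1 the first of 2 annotated windows is printed.
Klra7: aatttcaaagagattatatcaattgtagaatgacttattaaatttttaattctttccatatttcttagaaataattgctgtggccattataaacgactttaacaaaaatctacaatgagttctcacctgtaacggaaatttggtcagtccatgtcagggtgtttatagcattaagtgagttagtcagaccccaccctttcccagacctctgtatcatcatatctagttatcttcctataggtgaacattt
Ncr1: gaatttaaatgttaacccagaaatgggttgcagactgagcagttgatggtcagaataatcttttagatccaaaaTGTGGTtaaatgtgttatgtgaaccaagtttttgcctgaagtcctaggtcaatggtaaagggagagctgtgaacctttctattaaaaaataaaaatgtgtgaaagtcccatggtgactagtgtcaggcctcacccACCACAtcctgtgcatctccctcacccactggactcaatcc
Gzma: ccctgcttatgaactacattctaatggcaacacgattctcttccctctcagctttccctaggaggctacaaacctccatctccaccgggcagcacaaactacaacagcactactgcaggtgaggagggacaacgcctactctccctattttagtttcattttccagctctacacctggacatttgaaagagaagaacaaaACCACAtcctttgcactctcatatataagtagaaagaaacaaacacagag

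RUNX proteins are transcription factors of NK and T cells. Of the 36 members with such a window, 18 (50%) held the RUNX core on either strand, against 15.9% of all 27025 genes with a window. By class these were 10 of 12 granule genes, 5 of 7 activating receptors and 2 of 13 inhibitory receptors. The longer form TGTGGTT, which contains the core, was in 11 members (30.6%) and in 5.08% of all genes. Those 11 included Gzmb, Gzmc, Gzmd, Gzme, Gzmf and Gzmg, which are neighbours on one chromosome and share sequence, so they are not independent cases. The same granzymes are among the 10 granule genes with the core. Most of the 13 inhibitory receptors are Ly49 genes, which are close copies of each other. The class counts are therefore not counts of independent genes either. The T-box core GGTGTG, of the type bound by Eomes, was in 7 members (19.4%) and in 18.3% of all genes. Its longer form GGTGTGA was in 3 members (8.33%, against 3.84%), the ETS core GGAAGT in 10 (27.8%, against 22.2%), the STAT pattern TTCNNNGAA in 5 (13.9%, against 8.13%) and the AP-1 site TGACTCA in 1 (2.78%, against 5.16%). These 7 patterns were searched on both strands, and a match describes letters only.

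The arrays themselves were not equally alike. Over all genes, wild type replicate 1 had the widest spread of log2 values (SD 1.67) and wild type replicate 3 the narrowest (SD 1.17), while the other 5 arrays had SDs of 1.32 to 1.42. Lower quartiles of those 2 wild type arrays were 2.46 and 3.00, and those of the other 5 arrays lay between 2.74 and 2.85. Most of the receptor and granule genes were dim, and only 12 of the 41 had a mean above the median of all values, 3.59. These were 1 of 14 inhibitory receptors, 3 of 8 activating receptors, 5 of 12 granule genes and 3 of the other 7 genes. Tnfsf4, the gene of OX40L, had log2 values of 2.53 to 3.65 in wild type and 2.81 to 3.35 in knockout. Whether its probes lie in the deleted stretch is unknown, and the values are therefore no test of the genotype labels.

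No receptor or granule gene passed the test between the genotypes after adjustment. In limma, 0 of the 41 genes passed an adjusted p under 0.05 (0.00431% of all genes tested passed, which is 1 gene), and their adjusted p was 0.9995 or above. At an unadjusted p under 0.05, limma gave 2 of the 41 genes, Klra7 and Ncr1, both with higher values in knockout skin. The background was 1.88% of all genes at this level, 1.03% being higher and 0.854% lower in knockout. The measured difference was above 0 in 31 of 41 genes, with a median of 0.12 on the log2 scale, against 51.7% of all genes and a median of 0.01. This lean was lost without wild type replicate 1, when 17 of 41 differences were above 0 with a median of -0.03, against 46.3% of all genes and a median of -0.02. Without wild type replicates 1 and 3 together it was 27 of 41, against 55% of all genes. Markers of other tissue also differed in measured level between the genotypes, and their part in this lean was not tested. All 6 skeletal muscle markers had differences above 0 (median 0.77), with scores of -0.26, 0.36 and -1.50 on wild type replicates 1 to 3 and 0.10 to 0.70 in knockout. All 7 hair follicle markers had differences below 0 (median -1.37), with scores of 3.21, 0.36 and -0.78 in wild type and -1.30 to -0.05 in knockout. After another quantile normalization, 27 of 41 receptor and granule differences were above 0 with a median of 0.07, against 48.7% of all genes.

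**Figure D1:**
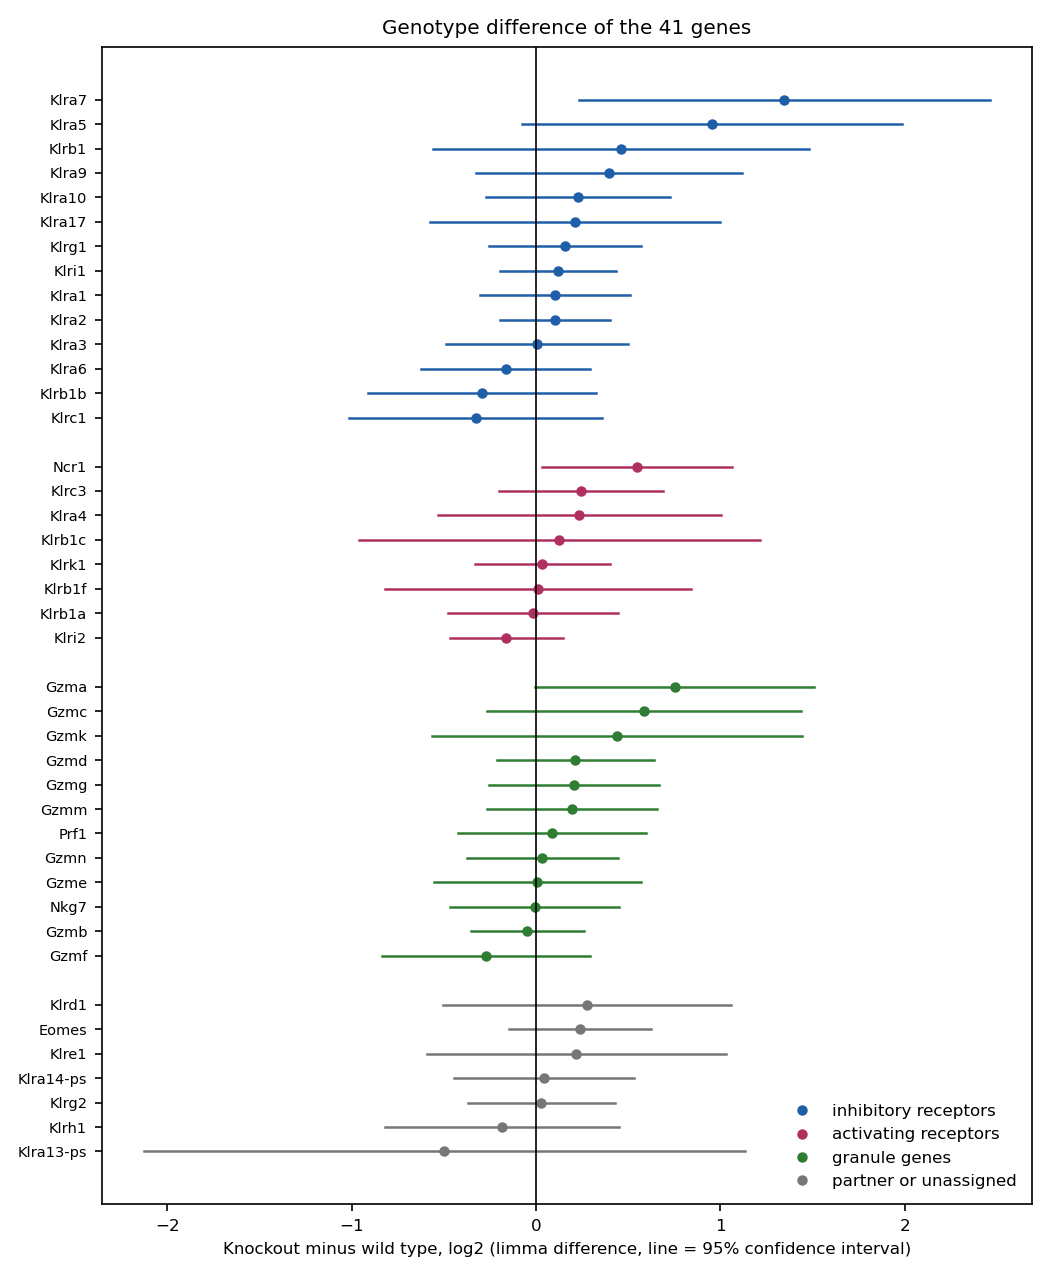
Genotype difference (knockout minus wild type, log2 scale, horizontal axis) of each of the 41 genes, coloured by class, with limma's 95% confidence interval as a line. Klra7 and Ncr1 are the 2 genes whose interval lies wholly above 0, and none of the 41 passed after adjustment.

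Precision varied among the genes. The 95% confidence interval lay within a 2-fold change in either direction for 26 of the 41 genes (63.4%), against 73.7% of all genes. For the other 15 genes a 2-fold difference lies within the interval. Of the 12 members with a mean above the median of all values, 4 (33.3%) had an interval within 2-fold. Of the 29 members below that median, 22 (75.9%) had one, so the narrow intervals were mostly those of dim genes. In bulk skin, fewer cells of a type and less RNA per cell cannot be told apart.

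Among inhibitory receptors, the gene with the smallest p was Klra7, which encodes Ly49G, a receptor for MHC class I. Its log2 values in wild type were 4.37, 5.23 and 3.41 on replicates 1 to 3 (mean 4.34 ± 0.91, SD, n = 3). In knockout they were 5.49, 5.48, 6.53 and 5.23 on replicates 1 to 4 (mean 5.68 ± 0.58, SD, n = 4). The lowest knockout value was identical to the highest wild type value, and every other knockout value was above all wild type values. The difference was 1.35 (SE 0.47), a 2.55-fold higher level with a 95% confidence interval of 1.18 to 5.51 (limma adjusted p = 0.9995). It was 0.88 without wild type replicate 3, the array with the lowest value, and 0.45 without wild type replicates 1 and 3 together.

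Klra5, which encodes Ly49E, another inhibitory Ly49 receptor, was at 1.88, 2.16 and 2.75 in wild type and at 2.88, 4.31, 2.48 and 3.22 in knockout. The groups overlapped through knockout replicate 3, and knockout replicate 2 stood highest. The difference was 0.96 (SE 0.44, limma unadjusted p = 0.065), and it was 0.59 without knockout replicate 2.

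Klra9, the Ly49I gene, showed one high array. Its values were 1.71, 1.76 and 2.01 in wild type and 3.02, 1.73, 2.23 and 1.91 in knockout, a difference of 0.40 (95% confidence interval -0.33 to 1.12). The first knockout array stood above the rest, and the other knockout values lay among or near those of wild type.

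The inhibitory receptors outside the Ly49 family gave no common picture. Klrc1 encodes NKG2A, which pairs with CD94 to read a nonclassical MHC molecule. It was at 2.20, 2.08 and 3.30 in wild type and at 2.15, 2.21, 2.17 and 2.26 in knockout. Wild type replicate 3 alone was high, and the difference of -0.33 (95% confidence interval -1.02 to 0.36) became 0.06 without it. Klrg1, a receptor for cadherins found on mature NK and effector T cells, was at 2.20, 2.58 and 2.78 in wild type and at 2.85, 2.70, 2.58 and 2.58 in knockout. Its groups overlapped, with a difference of 0.16 (95% confidence interval -0.25 to 0.57).

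Klrb1b, the inhibitory NKR-P1 receptor for a C-type lectin of the Clec2 family, had the same value of 2.69 on all 4 knockout arrays and values of 2.41, 2.94 and 3.60 in wild type, with replicate 1 below and the other two above the knockout value. The other 8 inhibitory receptors (Klra1, Klra2, Klra3, Klra6, Klra10, Klra17, Klrb1 and Klri1) differed by -0.16 to 0.46, the ends being Klra6 and Klrb1. Klrb1 was at 1.69, 2.39 and 3.61 in wild type, so its wild type arrays spanned all of its knockout values of 2.59 to 3.29. For Klra3, wild type reached from 1.49 to 2.20 and knockout from 1.58 to 2.02. Klra2 had the narrowest confidence interval of the 41 genes, with wild type values of 3.05 to 3.15 beside knockout values of 3.07 to 3.33. Over the class, 11 of 14 differences were above 0, with a median of 0.14 and 0 genes past the adjusted threshold.

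Among activating receptors, Ncr1 had the smallest p. It encodes NKp46, a receptor that marks NK cells and some other innate lymphoid cells. Its log2 values were 3.93, 4.37 and 4.69 in wild type and 4.79, 4.73, 5.22 and 4.77 in knockout, with means of 4.33 ± 0.38 (SD, n = 3) and 4.88 ± 0.23 (SD, n = 4). Every knockout value lay above every wild type value, which held for this 1 gene among the 41 and for 1.91% of all genes in either direction (1.1% with knockout higher, 0.815% with knockout lower). The gap between the groups was small, from 4.69 to 4.73. The difference was 0.55 (SE 0.22), a 1.46-fold higher level with a 95% confidence interval of 1.02 to 2.09 (limma adjusted p = 0.9995). It was 0.35 without wild type replicate 1 and 0.73 without wild type replicate 3.

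Klrb1c and Klrk1, the other receptors widely used to describe NK cells, had overlapping groups. Klrb1c encodes the activating NKR-P1C receptor, by which NK cells of C57BL/6 mice are usually recognised. It was at 4.37, 5.28 and 6.46 in wild type and at 5.33, 5.34, 5.99 and 5.33 in knockout. The wild type arrays lay below, beside and above the knockout arrays, and the difference of 0.13 had a 95% confidence interval of -0.96 to 1.21. It was -0.37 without wild type replicate 1 and 0.67 without wild type replicate 3.

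Klrk1 encodes NKG2D, the receptor for stress-induced MHC-like ligands. It was at 3.17, 3.15 and 3.16 in wild type and at 3.35, 3.16, 2.90 and 3.37 in knockout. The wild type arrays were nearly equal and lay within the knockout range, and the difference was 0.03 (95% confidence interval -0.33 to 0.40).

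Klra4, which encodes Ly49D, an activating Ly49 receptor coupled to an adaptor, was at 2.82, 4.14 and 3.42 in wild type and at 3.82, 3.85, 3.23 and 3.89 in knockout. The groups overlapped, with a difference of 0.24 (SE 0.33), and the sign turned to -0.08 without wild type replicate 1. Klrc3, of the NKG2 family, was at 1.22, 1.59 and 1.26 in wild type and at 1.98, 1.53, 1.49 and 1.40 in knockout, where knockout replicate 1 stood highest. Klri2, which pairs with Klre1, was at 2.42, 2.60 and 2.62 in wild type and at 2.42, 2.42, 2.24 and 2.46 in knockout, a difference of -0.16 (95% confidence interval -0.47 to 0.15).

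The remaining activating receptors, Klrb1a and Klrb1f, differed by -0.02 and 0.01. Klrb1f, an NKR-P1 receptor, was at 2.65, 3.23 and 4.25 in wild type, and its 4 knockout values, 3.26 to 3.64, all lay inside that range. Over the class, 6 of 8 differences were above 0, with a median of 0.08. After quantile normalization of the values again, 5 of 8 were above 0, with a median of 0.01. The same step lowered the median of the inhibitory receptors to 0.08 (10 of 14 above 0) and that of the granule genes to 0.09 (8 of 12).

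Among granule genes, the tryptase Gzma had the smallest p. Its log2 values were 3.06, 4.38 and 4.17 in wild type and 4.52, 4.38, 4.81 and 4.78 in knockout, with means of 3.87 ± 0.71 (SD, n = 3) and 4.62 ± 0.20 (SD, n = 4). Wild type replicate 1 was lowest, and the highest wild type value equalled the lowest knockout value. The difference was 0.75 (SE 0.32), a 1.68-fold higher level with a 95% confidence interval of 0.996 to 2.85 (limma adjusted p = 0.9995). Without wild type replicate 1 it was 0.34, and without wild type replicates 1 and 3 it was 0.24.

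For the core genes of target cell killing, the measured differences were small. Prf1, which encodes perforin, was at 4.55, 4.97 and 5.32 in wild type and at 5.24, 5.15, 4.97 and 4.78 in knockout. All knockout values lay inside the wild type range, with a difference of 0.09 (95% confidence interval -0.42 to 0.59). Gzmb, the granzyme that cleaves caspase substrates, was at 2.40, 2.68 and 2.56 in wild type and at 2.41, 2.47, 2.56 and 2.56 in knockout. Its difference was -0.05 (95% confidence interval -0.35 to 0.26), one of the narrower intervals of the 41 genes. On every array, however, Gzmb lay below the lower quartile of all genes. The narrow interval is that of a dim probe set and is weak evidence of an equal level.

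Nkg7, a membrane protein of cytotoxic granules, was at 4.79, 5.58 and 5.26 in wild type and at 5.23, 5.19, 5.19 and 5.19 in knockout. The knockout arrays were nearly identical and lay inside the wild type range, and the difference was -0.01 (95% confidence interval -0.47 to 0.45). Without wild type replicates 1 and 3 it was -0.38.

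Gzmc, Gzmd and Gzmf belong to the row of granzyme genes next to Gzmb. Gzmc was at 2.70, 2.70 and 2.37 in wild type and at 2.81, 3.25, 4.11 and 2.53 in knockout, where 1 high array carried much of the difference of 0.58 (95% confidence interval -0.27 to 1.44). Gzmd was at 1.83, 1.78 and 1.71 in wild type and at 1.88, 2.41, 1.80 and 1.86 in knockout, and again 1 knockout array stood above the rest. Gzmf was at 1.63, 2.48 and 2.50 in wild type and at 2.01, 2.01, 1.71 and 2.01 in knockout, a difference of -0.27 that became -0.56 without wild type replicate 1.

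Gzmk, another tryptase, ranged from 4.00 to 5.45 in wild type and from 4.50 to 5.77 in knockout, and its difference was 0.44 (95% confidence interval -0.57 to 1.44). Gzmm, a granzyme of innate lymphocytes, covered 4.32 to 4.96 in wild type and 4.80 to 5.06 in knockout, a difference of 0.19. Without wild type replicate 1 these differences were 0.15 for Gzmk and -0.02 for Gzmm, and without wild type replicate 3 that of Gzmk was 0.87. Gzme, Gzmg and Gzmn differed by 0.01 to 0.21. Over the 12 granule genes, 9 differences were above 0, with a median of 0.14 and 0 genes past the adjusted threshold.

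**Figure D2:**
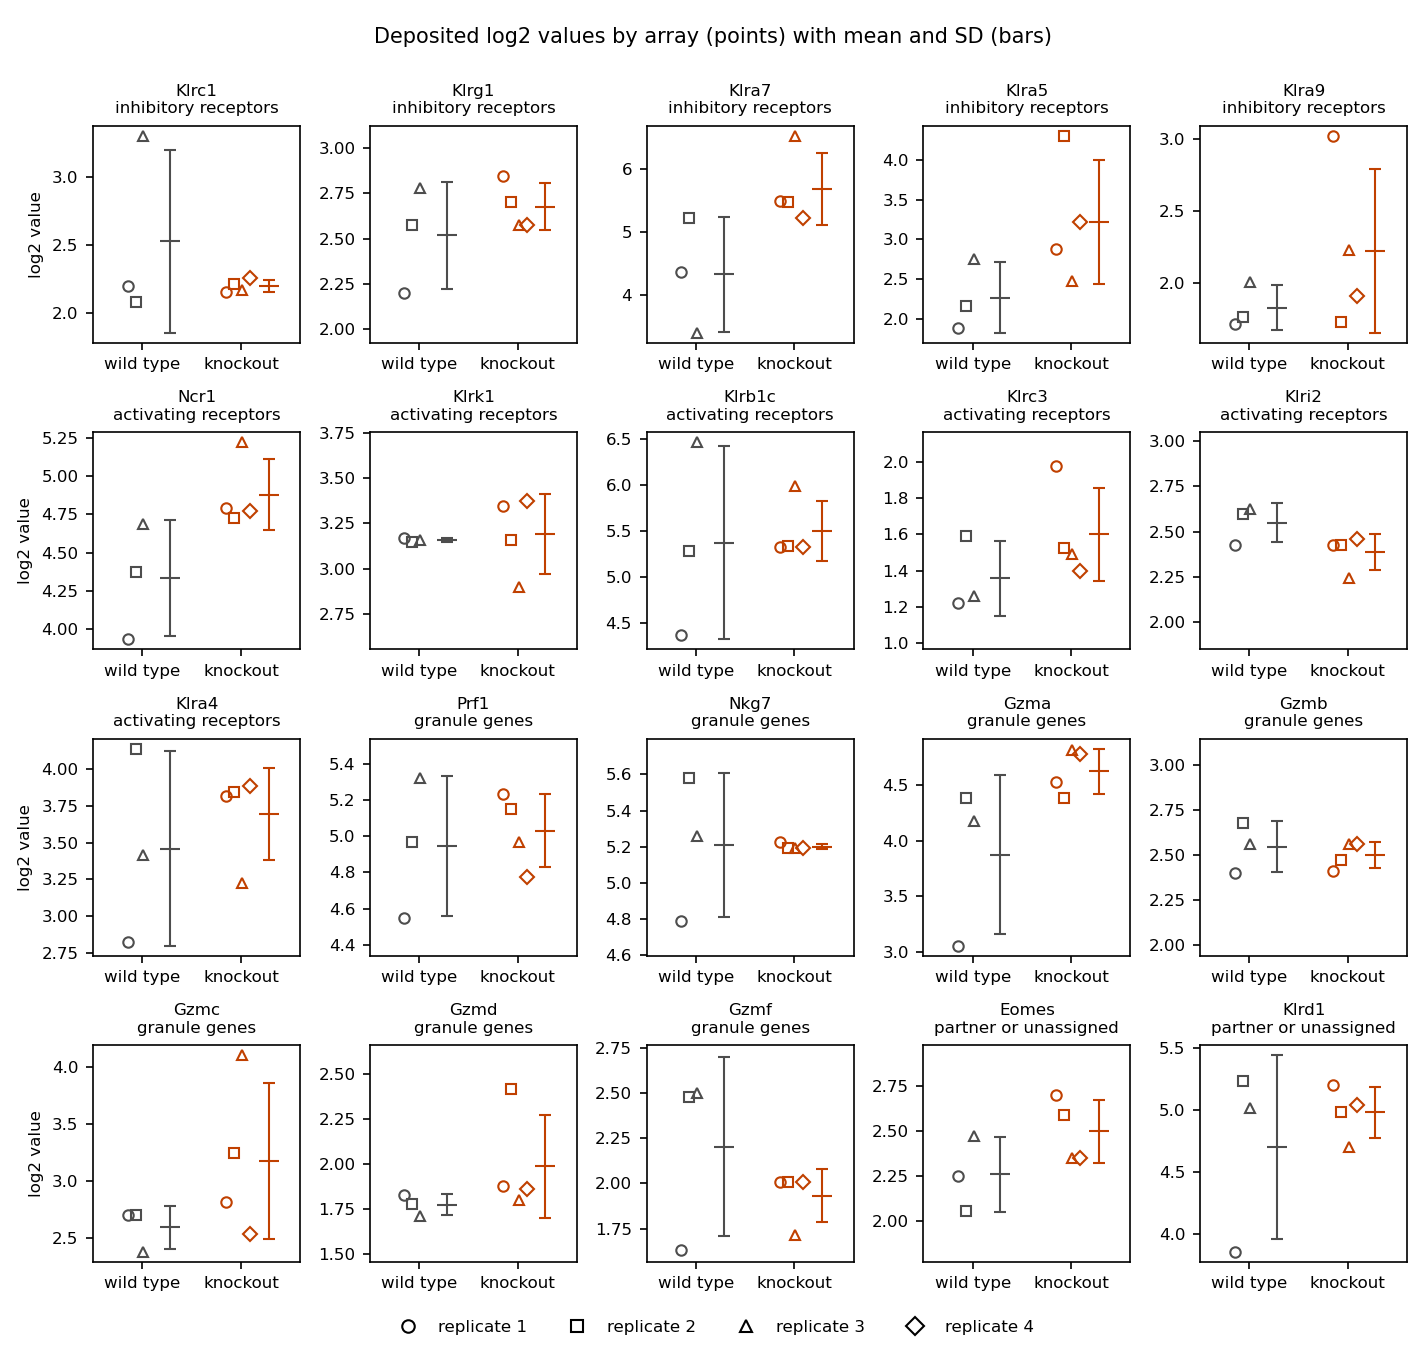
Deposited log2 values (vertical axis, scaled for each gene) of 20 receptor and granule genes on each of the 3 wild type and 4 knockout arrays, with the mean and SD of each group as a bar. Wild type replicate 1 (grey circle) was the lowest of the 7 arrays for Gzma, Ncr1, Klrb1c, Prf1, Nkg7 and Klrd1, and Ncr1 was the 1 gene whose groups did not overlap.

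Klrd1, which encodes CD94, the partner of the NKG2 chains, was at 3.86, 5.23 and 5.02 in wild type and at 5.20, 4.98, 4.70 and 5.04 in knockout. Wild type replicate 1 alone was low. The difference was 0.28 (95% confidence interval -0.50 to 1.06), and it was -0.15 without that array. Eomes, a T-box transcription factor of NK cells and memory CD8 T cells, was at 2.25, 2.06 and 2.47 in wild type and at 2.70, 2.59, 2.35 and 2.35 in knockout, a difference of 0.24 (95% confidence interval -0.15 to 0.62). Klre1, Klrh1, Klrg2 and the Ly49 pseudogenes Klra13-ps and Klra14-ps differed by -0.50 to 0.22. Ly49 genes are close copies of each other, and so are the granzymes next to Gzmb, so probes can cross-hybridise and each value belongs to its probe set.

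Inhibitory receptors, activating receptors and granule genes all had their lowest values, as classes, on wild type replicate 1. A class score was taken on each array as the mean, over the genes of the class, of each gene's deviation from its own mean over the 7 arrays. On wild type replicate 1 the scores were -0.42 for inhibitory receptors, -0.45 for activating receptors and -0.43 for granule genes, against -0.01 for all genes. On the other 6 arrays they lay between -0.07 and 0.24 for inhibitory receptors, between -0.03 and 0.22 for activating receptors and between -0.04 and 0.22 for granule genes. Knockout and wild type scores overlapped in every class, since wild type replicates 2 and 3 fell among the knockout arrays or close to them.

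Gaps between class scores show only shifts between arrays, since each gene was centred on its own mean over the 7 arrays. They do not measure how much activating receptor RNA there was beside inhibitory receptor RNA. The activating score minus the inhibitory score ran from -0.11 on knockout replicate 3 to 0.13 on wild type replicate 3, and was above 0 on 3 of 7 arrays. The granule score minus the inhibitory score ran from -0.25 on knockout replicate 1 to 0.14 on knockout replicate 3. These ends were both knockout arrays, so the spread within that genotype was as wide as the spread over all arrays. Class medians of the genotype difference were 0.14, 0.08 and 0.14 for inhibitory receptors, activating receptors and granule genes, beside 0.01 for all genes.

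**Figure D3:**
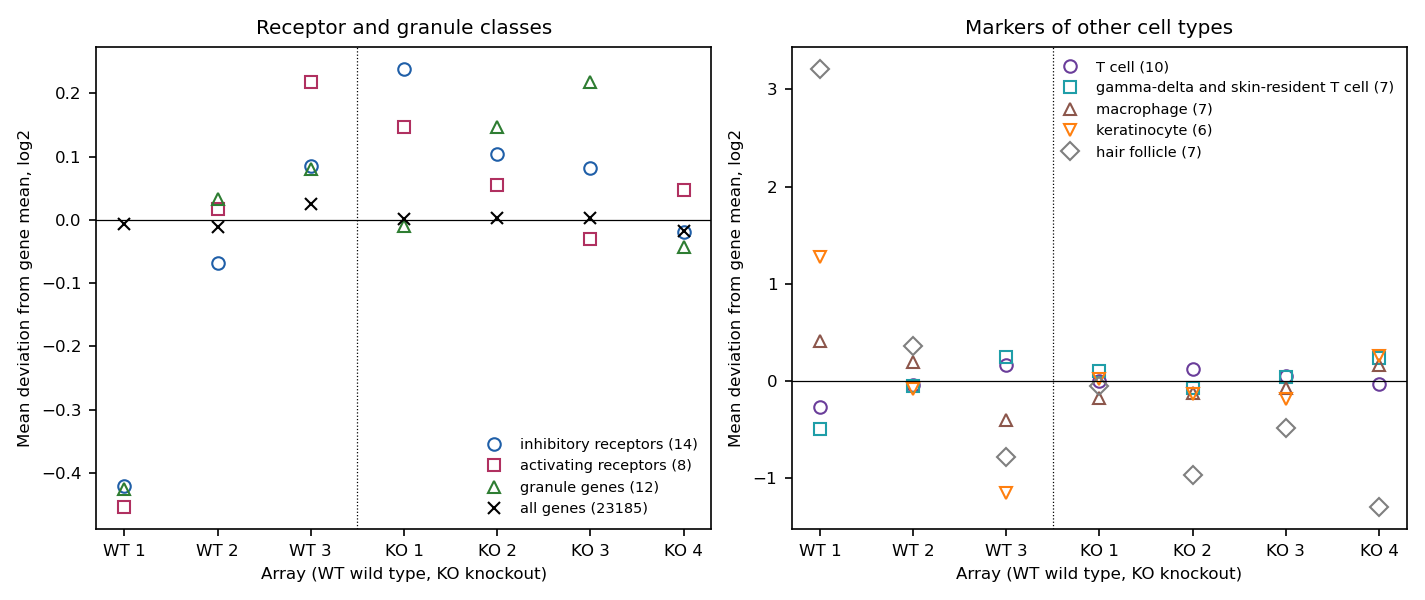
Mean deviation of each class (left) and of markers of other cell types (right) from the gene means on the 7 arrays, on the log2 scale, with the number of genes in brackets. All 3 classes lay between -0.45 and -0.42 on wild type replicate 1 and between -0.07 and 0.24 on the other arrays, while hair follicle and keratinocyte markers were highest on wild type replicate 1.

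Wild type replicate 1 held the lowest of the 7 values for 28 of the 41 genes (68.3%), against 39.1% of all genes. These were 11 of 14 inhibitory receptors, 5 of 8 activating receptors and 8 of 12 granule genes. It held the highest value for 0 of the 41 genes, against 25.3% of all genes. Wild type replicate 3 held the highest value for 15 of the 41 (36.6%), against 30.1% of all genes. The part of this array's wide spread of values, given above, in these low values was not tested.

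Leaving out single arrays showed how far the class medians rest on that library. Without wild type replicate 1 they were 0.01 for inhibitory receptors, -0.06 for activating receptors and -0.02 for granule genes, and at an unadjusted p under 0.05 limma then gave 2 members, Gzmf and Klrb1b, both lower in knockout. Klrb1b was at 2.69 on all 4 knockout arrays, and Gzmf was at 2.01 on each except knockout replicate 3. Such ties lower the measured spread on which p rests. Without wild type replicate 1, 3.18% of all genes reached this unadjusted level. Without wild type replicate 3 the medians were 0.24, 0.20 and 0.23, and 5 members reached it (Klrb1, Gzma, Gzmg, Klra5 and Ncr1, all higher in knockout), as did 12% of all genes, and 59% of all differences were above 0. Without both of these arrays 8.73% of all genes and 3 members reached it, Nkg7 (-0.38), Gzmf (-0.55) and Klrb1b (-0.25), all lower in knockout. The class medians were then 0.12 for inhibitory receptors and 0.03 for both activating receptors and granule genes. Leaving out single knockout arrays gave medians between 0.06 and 0.18. Adjusted calls among the 41 genes were 0 in each run that left out 1 array.

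**Figure D4:**
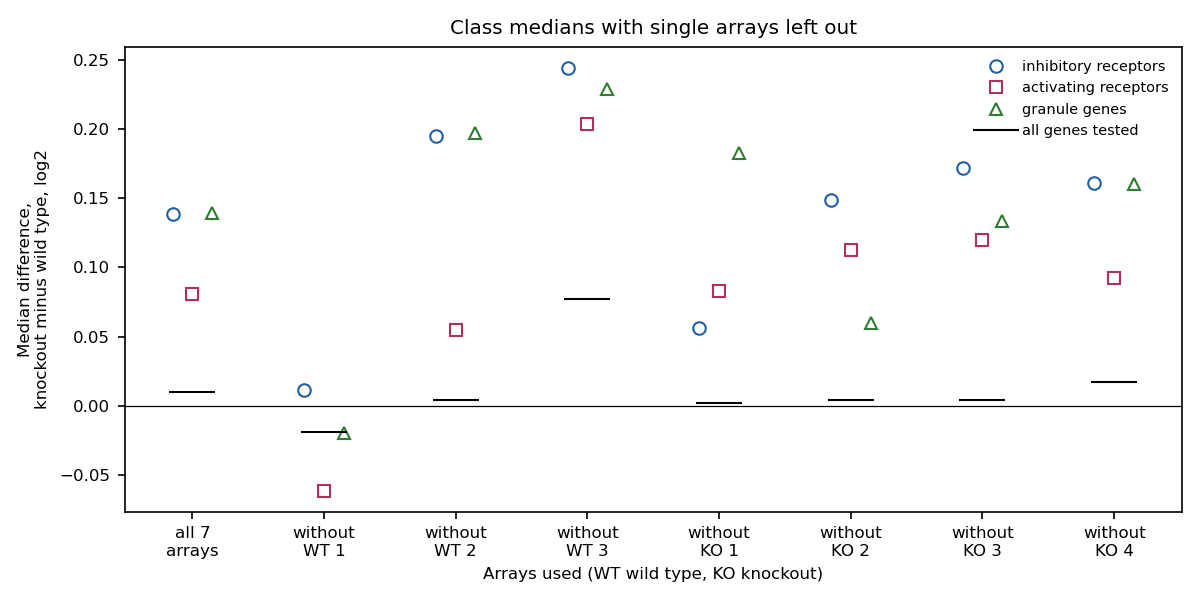
Median genotype difference (knockout minus wild type, log2) of each class and of all genes tested, with all 7 arrays and with each array left out in turn. The medians of the 3 classes dropped to between -0.06 and 0.01 without wild type replicate 1 and were between 0.20 and 0.24 without wild type replicate 3, where that of all genes was 0.08.

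Genes that work with these receptors and granules were taken from 5 lists, in which 0 genes passed the adjusted threshold of limma. Of 16 adaptors and proximal signalling genes, 10 differences were above 0, with a median of 0.02. Hcst, the adaptor of NKG2D, differed by 0.30 (SE 0.16) and Inpp5d, an inhibitory lipid phosphatase, by -0.40 (SE 0.21). Of 13 receptor ligands, 8 were above 0, with a median of 0.16, and H60b, a ligand of NKG2D, differed by 0.39 (SE 0.19). It was at 3.82, 4.37 and 4.37 in wild type and at 4.34, 4.68, 4.65 and 4.65 in knockout, so the groups overlapped through the first knockout array.

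Among 14 genes of granule biogenesis, release and inhibition, 7 differences were above 0 and 7 below, with a median of 0.03. The 3 with the smallest p were granzyme inhibitors of the serpin family or their relatives, Serpinb9 (0.41, SE 0.22), Serpinb9b (0.41, SE 0.22) and Serpinb6b (0.57, SE 0.32). Each of these 3 was lowest on wild type replicate 1, whereas the list as a whole scored highest there (0.32, against -0.56 to 0.13 on the other arrays), with Ctsc, Lamp1, Lyst, Ap3b1 and Stxbp2 among the genes highest on that array. Among 17 lymphoid transcription factors, cytokines and cytokine receptors, 12 were above 0, with a median of 0.03. Il18, a cytokine that activates NK cells, differed by 0.80 (SE 0.33, limma unadjusted p = 0.045), and Tbx21, the T-box factor that acts beside Eomes, by 0.18 (SE 0.15). Of 18 other NK and cytotoxic lymphocyte genes, 13 were above 0, with a median of 0.06, and the chemokine Xcl1 differed by 0.41 (SE 0.22).

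Scores of lymphocyte markers were also lowest on wild type replicate 1. The 10 T cell markers scored -0.27 there, against -0.05 to 0.17 on the remaining 6 arrays. The score of 7 gamma-delta and skin-resident T cell markers was -0.50 on that array, against -0.08 to 0.25 on the others, and that of 4 B cell markers -0.58 against -0.10 to 0.33. Cd3d, a chain of the T cell receptor complex, was at 2.86, 3.01 and 2.66 in wild type and at 3.61, 3.28, 3.15 and 3.64 in knockout. Its groups did not overlap, and the difference was 0.58 (SE 0.18, limma unadjusted p = 0.013, adjusted p = 0.9995). Of the other CD3 chains, Cd3g also had separate groups, at 0.22 (SE 0.15), while Cd3e overlapped, at -0.09 (SE 0.25). Separate groups were found for 2 of the 10 T cell markers and for 1.91% of all genes. Over this list 6 differences were above 0 and 4 below, among them Cd4 (-0.24) and Cd5 (-0.19), with a median of 0.05.

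Keratinocyte, hair follicle, fibroblast, macrophage and pan-leukocyte markers scored highest on wild type replicate 1, opposite to the lymphocyte markers. The hair follicle score was 3.21 there, against -1.30 to 0.36 elsewhere, and the keratinocyte score 1.27 against -1.15 to 0.26. The macrophage score fell between 0.41 for wild type replicate 1 and -0.40 for wild type replicate 3. For the same 2 arrays the 5 pan-leukocyte markers scored 0.72 and -1.21, and the 6 fibroblast markers 0.54 and -0.93. The 16 receptor adaptors and signalling genes also scored highest on wild type replicate 1, at 0.16. No marker can be called absent, since these log2 values have no true zero. The keratinocyte markers had values of 4.94 to 10.9, which goes with the tissue label of skin. The part of these other cell types in the receptor and granule values was not tested.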

How the data were processed

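Total RNA of lesional skin was measured on 7 Affymetrix arrays. The authors deposited log2 values made with RMA (robust multi-array average) according to the labels, and the submitters' processing notes name no other step. Version, probe-set definition and genome build: not given in the sources used here. Of 25206 probe sets, 23185 had 1 symbol in the platform annotation and were tested, and 2021 were unnamed. Exactly equal values on different arrays occurred in 54.3% of genes and in 20 of the 41 members.

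Values were used as deposited, with no filter. Genotypes (4 knockout, 3 wild type, from the sample titles) were tested by lmFit and eBayes of limma 3.58.1 (R 4.3.3), two-sided, with Benjamini-Hochberg adjustment over all 23185 genes at 0.05. The procedure was tested on simulated data. Lists are described by counts and medians, without a test. Values on every array are given for 11 genes fixed by role and for the 4 members with the smallest p in each class, and for other lists up to 3 genes with the smallest p. Members, classes and lists were chosen with earlier results of these data known. Older symbols were matched through a RefSeq table (GRCm38.p6), and promoter windows came from RefSeq. Alternatives were other moderation, dim-gene filters (30% or 50%), renormalization, centring, array weights, blocks, all probe sets and left-out arrays. The number of arrays limits the precision. Figures were drawn with matplotlib 3.10.9.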

Additional observations from a re-analysis of the deposited data

Results flagged for a closer look

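In the knockout group, which has 4 arrays, a value was listed here when its gap to the nearest other array took up so much of the group's range that it passed Dixon's 95% critical value for 4 samples. Of 44 genes and class scores checked, 9 met this, and 5 of the 9 were on knockout replicate 3. The rate of about 1 in 20 that belongs to this critical value holds for values without ties. Ties among the knockout arrays raise the ratio of gap to range, as for Gzmf and Nkg7, where all other knockout values were identical. The count was therefore not compared with chance, and the share over all genes was not computed. The wild type group has 3 arrays and was not checked.

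On knockout replicate 3, Ncr1 was at 5.22 with the other knockout arrays at 4.73 to 4.79, and Klrb1c was at 5.99 against 5.33 to 5.34, both receptors being highest there. On the same array Klra4 was lowest at 3.23 against 3.82 to 3.89, Klri2 was at 2.24 against 2.42 to 2.46, and Gzmf was at 1.71 with the other 3 arrays all at 2.01. Knockout replicate 2 had Gzmd at 2.41 against 1.80 to 1.88 and Klrg2 at 4.19 against 3.99 to 4.02. Knockout replicate 1 had Klre1 at 4.29 against 2.96 to 3.05. Its Nkg7 value of 5.23 differed by only 0.032 from the other 3 knockout arrays, which were identical. Ncr1 differed between the genotypes by 0.43 without knockout replicate 3.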

How the results depend on the processing

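The 1 gene past the adjusted threshold was no member. It was lost (0 genes) with intensity trend and robust moderation, quantile normalization again, median centring and all probe sets. The same held for the replicate block, the code suffix block and each run that left out 1 array. Members past it were 0 under every alternative with more than 1 wild type array, except limma's default array weights. Those gave 13 of 41 members and 4032 genes. That estimate did not converge and put a weight of 75.4 on wild type replicate 2 against 0.106 and 0.109 on replicates 1 and 3. A gene-by-gene estimate, added after seeing the data, gave 3.72, 0.203 and 0.208 and 0 members.

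Genes at an unadjusted p under 0.05 numbered 436, and 219 without the dimmest 50% of genes, 710 after quantile normalization, 7364 and 3003 with the default and gene-by-gene weights, 251 with the replicate block, 278 with the code suffix block, 2024 without wild type replicates 1 and 3, and 249 to 2786 with 1 array left out. Members at that level were 2, and 3 with median centring (Klra7, Ncr1 and Gzma). They were 16 and 9 with the weights, 1 with the replicate block (Ncr1), 1 with the code suffix block (Klra7) and 1 to 5 with 1 array left out. Same-numbered arrays correlated at -0.086, -0.145 and 0.034 in their deviations, and arrays of different number at -0.357 to 0.266. With so few arrays these values cannot settle whether replicate numbers pair samples, and the sample titles do not say. Sample codes, whose meaning is not given, group the arrays otherwise and partly coincide with genotype. Knockout replicates 1 and 2 share a code number, as do wild type replicates 1 and 2, and wild type replicate 3 shares one with knockout replicate 3. Arrays sharing a code number had a consensus correlation of 0.179. With the code number as a random block, 2 members reached that unadjusted level.

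Median differences with 1 array left out were -0.031 to 0.236 for all members, 0.011 to 0.244 for inhibitory receptors, -0.061 to 0.204 for activating receptors and -0.019 to 0.229 for granule genes. Without the dimmest 30% of genes only 2 inhibitory receptors stayed, with a median of 0.726. Without the dimmest 50% only 1 stayed, Klra7, at 1.35, and 2 activating receptors, Ncr1 and Klrb1c, with a median of 0.337. These values describe single genes rather than the classes.

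For the 20 members given array by array, 23 of 356 values under 19 alternatives changed sign, in 9 genes. Default weights turned 6 into calls at the adjusted threshold, and 327 kept direction and stayed short of it. No member was past that threshold in the main comparison, so staying short of it is no measure of stability. Kept values could still differ in size. The Klra7 difference of 1.35 was 0.45 without wild type replicates 1 and 3. After quantile normalization the limma unadjusted p of Ncr1 went from 0.040 to 0.051, and that of Gzma from 0.051 to 0.034. Default weights, gene-by-gene weights and leaving out wild type replicates 1 and 3 gave -0.261, -0.184 and -0.252 for Klrd1, 0.117, 0.051 and 0.121 for Klrc1, and -0.457, -0.357 and -0.447 for Klra4. Nkg7 was 0.018 after quantile normalization and Klrk1 -0.025 with the replicate block. With 1 array left out the ranges were -0.114 to 0.275 for Prf1, -0.218 to 0.178 for Nkg7, -0.025 to 0.134 for Klrk1, -0.146 to 0.541 for Klrd1, -0.553 to 0.059 for Klrc1, -0.0018 to 0.289 for Klrg1, -0.375 to 0.672 for Klrb1c, -0.119 to 0.020 for Gzmb and -0.084 to 0.577 for Klra4. The cause of these changes was not tested. Most members are dim, and 7 arrays limit what could be called.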

Other observations

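The Ly49 pseudogene Klra13-ps had the widest wild type spread of the 41 genes. It was at 5.93, 6.24 and 8.92 on wild type replicates 1 to 3 and at 5.99, 6.91, 6.60 and 6.64 in knockout. Klrb1, Klrb1c and Klrb1f, neighbouring NKR-P1 genes, shared the order of the wild type arrays, with replicate 1 lowest and replicate 3 highest. They were at 1.69 to 3.61, 4.37 to 6.46 and 2.65 to 4.25 in wild type. The order was not particular to them, since Klrb1b, Ncr1, Prf1, Gzmk, Gzmm and other members showed it too. In contrast Klra7 was lowest on wild type replicate 3, at 3.41. These patterns were chosen after the values were seen.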
